A study of Mus musculus with 7 samples.

Results

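The 10 genes described here encode the core of the interleukin-1 (IL-1) system and of the NLRP3 inflammasome, and they were chosen by name from the 32544 genes of the deposited table. They were the ligands Il1a, Il1b, Il18 and Il33, the receptor antagonist Il1rn, the signalling receptor Il1r1 with its partner Il1rap, the decoy receptor Il1r2, the sensor Nlrp3 and the protease Casp1. All 10 were found in the table. The RNA was that of the whole abdominal aorta. All mice were male and Apoe-/-, a genotype without apolipoprotein E in which plaques form, and had eaten a high-fat diet for 12 weeks. The series title places the study in itaconate, the transporter ABCA1 and the efflux of cholesterol. The groups were 3 libraries from mice given ITA-LNP and 4 libraries from mice given Ctrl-LNP, named control-LNP here, each at 50 mg/kg by intravenous injection, 1 time per week. LNP commonly abbreviates lipid nanoparticle, and ITA was read from the title as itaconate, a metabolite of activated macrophages. Whether libraries correspond to separate mice is not stated in the labels, and p-values therefore cover only the spread among these libraries, which may be technical.

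IL-1β is made as an inactive precursor after toll-like receptor or cytokine signals. The sensor NLRP3 assembles with an adaptor and caspase-1, and caspase-1 then cuts pro-IL-1β and pro-IL-18 to their secreted forms. Secreted IL-1 binds IL1R1 and IL1RAP on smooth muscle, endothelium and fibroblasts and turns on NF-κB target genes, while the antagonist IL1RN and the decoy IL1R2 block it. In atherosclerosis this pathway is known for the cholesterol crystals that trigger NLRP3 in plaque macrophages and for trials of an antibody against IL-1β.

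Levels are CPM, reads of a gene scaled to 1000000 reads of the library, from 3′ mRNA sequencing, in which reads come from transcript ends and gene length does not enter. The libraries held 6375381 to 7281721 reads with ITA-LNP and 5077073 to 6688872 reads with control-LNP, and a count of 0 allows a level of up to 0.412 to 0.591 CPM, for counting error only. Markers of the labelled tissue were far apart between the groups: the 8 smooth muscle markers summed to 16793 to 20357 CPM with ITA-LNP and 120 to 221 CPM with control-LNP, with all 8 above in every ITA-LNP library. The 11 neutrophil markers summed to 46.3 to 87.2 CPM with ITA-LNP and 962 to 27132 CPM with control-LNP, and 6 of them had no overlap between the groups. The libraries labelled control-LNP were thus low in the wall markers that define an aorta, although none of the 8 was at 0 in all of them. Platelet markers summed to 133 to 265 CPM with ITA-LNP and 6129 to 7540 CPM with control-LNP, and macrophage markers to 586 to 677 CPM with ITA-LNP and 243 to 538 CPM with control-LNP. The macrophage list was split: of its 10 markers, 6 were higher and 1, Csf1r, lower in every ITA-LNP library. Csf1r averaged 48.5 CPM with ITA-LNP and 258 CPM with control-LNP. Control-LNP replicate 2 stood apart, with 10846 genes detected against 14232 to 15333 in the other control-LNP libraries. In the ITA-LNP libraries, 1535 of 12636 tested genes had 0 reads in 1 library and at least 50 in another, against 1220 genes over all 4 control-LNP libraries and 29 over control-LNP replicates 1, 3 and 4, a measure chosen after the values were seen. In whole tissue, fewer cells of a type and less RNA per cell cannot be told apart.

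Of the 10 genes, 9 passed the filter on low levels and 1, Il1a, did not. Il1b was lower and Il1r1 higher with ITA-LNP, and the other 7 did not pass the test (limma-trend on log2(CPM + 1), adjusted p under 0.05 over all genes tested; 6 members at an unadjusted p under 0.05). That made 2 of 9 called, where 15.5% of all 12636 tested genes were called, 10.3% as higher (1306) and 5.15% as lower (651). Centring each library on its median, which moved ITA-LNP against control-LNP by 1.13 on the log2 scale, turned these into 741 higher and 1249 lower genes. That shift rested mostly on control-LNP replicate 2, with a median log2(CPM + 1) of 0.68, against 4.15 to 4.53 in the other libraries. Of the 6 members at an unadjusted p under 0.05, Il33 had the largest, 0.0490 (limma-trend). A smaller p was held by 29.0% of all tested genes. The groups did not overlap for 4 of the 9, Il1r1 with higher and Il1b, Il1r2 and Casp1 with lower ITA-LNP values (Casp1 by a gap within counting error), beside 29.9% of all tested genes, 19.1% higher and 10.7% lower. Without control-LNP replicate 2, 4 of the 9 were called, with Il1r2 and Casp1 added as lower, and 31.4% of all tested genes were, 15.7% in each direction. The same 4 members then had no overlap, beside 45.7% of all tested genes, 21.4% higher and 24.2% lower. Il1r2 passed the filter on low levels, set on all 7 libraries, through control-LNP alone, and Il33 through ITA-LNP alone. The counts that hold Il1r2 or Il33 are therefore a description. The median log2 fold change of the 9 was 0.60, and that of all tested genes 0.15; without control-LNP replicate 2 these medians were -0.25 and -0.31.

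**Figure D1:**
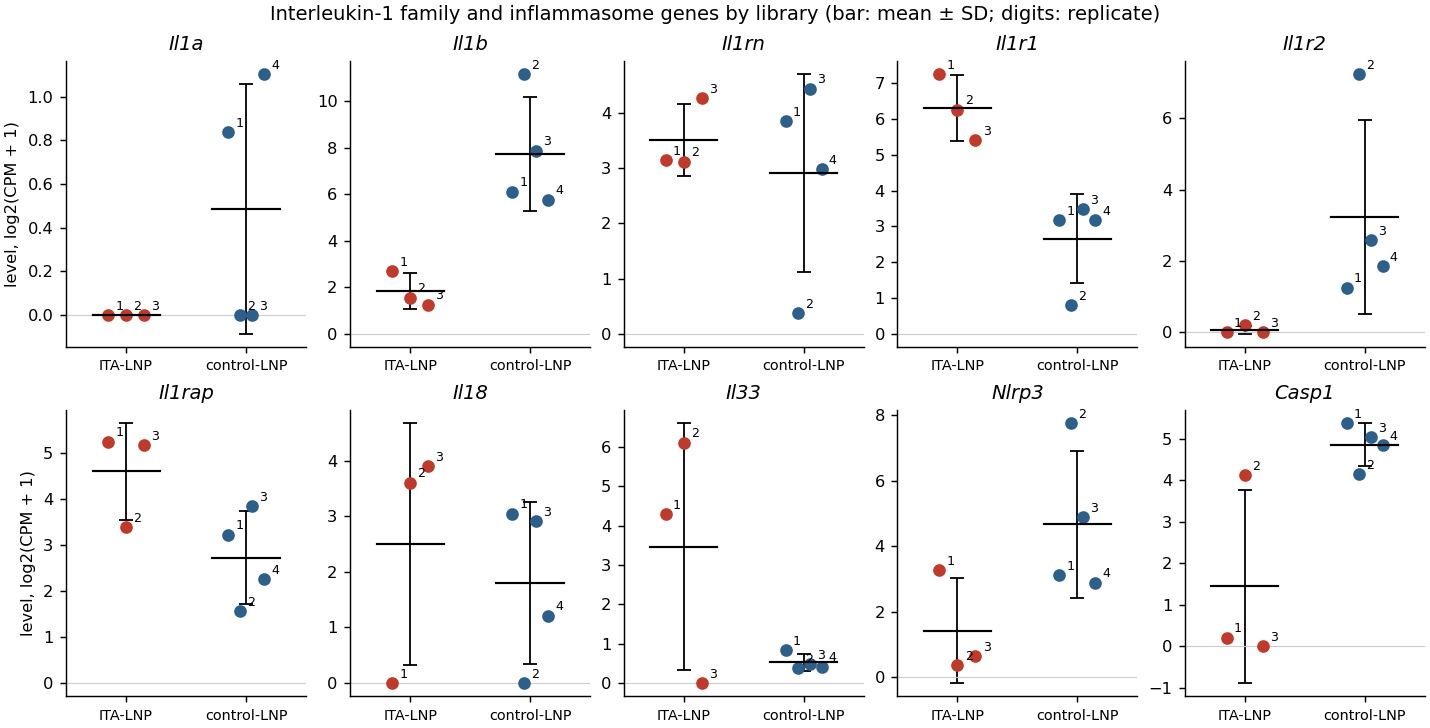
Level of each of the 10 genes in each library as log2(CPM + 1), with ITA-LNP in red on the left and control-LNP in blue on the right, the replicate number beside each point and bars for the mean and SD (n = 3 and 4). For Il1b, Il1r1, Il1r2 and Casp1 no ITA-LNP point overlaps a control-LNP point, and control-LNP replicate 2 is the highest of all libraries for Il1b, Il1r2 and Nlrp3.

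Il1b (chr2:129364570-129371139, mm10, minus strand), the main secreted agonist of the pathway, had the largest difference of the members on the log2(CPM + 1) scale. By the ratio of mean CPM, control-LNP over ITA-LNP, Il1r2 differed by more (810 against 224 for Il1b). Il1b was measured at 5.49, 1.92 and 1.37 CPM in ITA-LNP replicates 1 to 3, against 68.0, 2275, 232 and 53.1 CPM in control-LNP replicates 1 to 4. Every ITA-LNP value lay below every control-LNP value, and control-LNP replicate 2 was far above the other 3. The ITA-LNP values rested on 35, 13 and 10 reads, and those of control-LNP on 324 to 15215 reads. Il1b ranked 52 by level among all genes in control-LNP replicate 2 and 9704 to 10123 in the ITA-LNP libraries. It fell with ITA-LNP, with a log2 fold change of -5.89 ± 1.22 (SE; adjusted p = 0.00913, limma). Without control-LNP replicate 2, whose value made the mean control-LNP level 657 rather than 118 CPM, the log2 fold change was -4.75 (adjusted p = 0.00208). Leaving out any other library kept the call, with adjusted p up to 0.0443, but limma-voom on the recovered reads did not make it (-6.52, adjusted p = 0.313).

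Il1b and the summed neutrophil markers were both highest in control-LNP replicate 2 and next in replicate 3, and both lower in all ITA-LNP libraries. The part of the neutrophil marker level in the fall of Il1b was not tested. Per 1000 CPM of summed neutrophil markers, Il1b stood at 70.9, 22.0 and 29.7 CPM in ITA-LNP replicates 1 to 3, against 70.6, 83.8, 22.3 and 47.7 CPM in control-LNP replicates 1 to 4. On that scale the groups overlapped, whereas the levels themselves did not. The scale leans on few genes: S100a8 and S100a9 were at 11809 and 10638 CPM of the 27132 CPM in control-LNP replicate 2. The markers Ngp, Camp and Ltf had 0 reads in that library, below every other control-LNP library. The 3 tested genes with the pattern most like that of Il1b over the 7 libraries were Csf3r, Il27ra and Trem3, with Pearson correlations of 0.9939, 0.991 and 0.9874. Csf3r, the receptor for the growth factor of neutrophils, is one of the neutrophil markers and was at 0.471, 0.147 and 0.275 CPM with ITA-LNP and 12.0, 305, 51.4 and 10.7 CPM with control-LNP. These correlations describe 7 libraries that fall into 2 groups and differ in composition.

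The promoter of Il1b is shown because it was the member called as lower. The window runs from 250 bases before to 50 after the start in RefSeq (GRCm38.p6), and capitals mark the TATA box, TATAAA, 31 bases before the start.
Il1b, chr2:129371090-129371389, minus strand: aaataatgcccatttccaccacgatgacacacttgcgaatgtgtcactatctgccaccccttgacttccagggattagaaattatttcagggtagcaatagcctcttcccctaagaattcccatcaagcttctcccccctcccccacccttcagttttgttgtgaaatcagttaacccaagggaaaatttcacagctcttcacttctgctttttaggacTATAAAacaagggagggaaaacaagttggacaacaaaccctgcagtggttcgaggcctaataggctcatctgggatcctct
Both strands of the 15 RefSeq windows of the 10 genes were searched for TATAAA, the AP-1 motif TGANTCA, the PU.1 core GAGGAA, the interferon-type GAS motif TTCNNNGAA, and the NF-κB and CArG consensus motifs. TATAAA was found in 6 of the 15 windows, those of Il1a, Il1b, Il1rn, Il18 and both of Il33, while 13.6% of all 32851 mouse windows held it. NF-κB was found in 2 windows, of Il1r1 and Nlrp3, and in 8.46% of all windows. AP-1 was found in 2, of Il1a and Il1rn, and in 7.81% of all, PU.1 in 4, of Il1a, Casp1, Nlrp3 and Il33, and in 28.3% of all. GAS was found in 1, of Il1r2, and in 8.3% of all, and CArG in 0 and in 1.63% of all. A match is a description only.

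Il1a (chr2:129299610-129309972, mm10), the membrane-bound and nuclear agonist released from dying cells, was at the edge of detection. It had 0 reads in all 3 ITA-LNP libraries, which allows up to 0.412 to 0.471 CPM. In the control-LNP libraries it had 4, 0, 0 and 7 reads, or 0.788, 0, 0 and 1.15 CPM. The groups overlapped, and the mean log2(CPM + 1) differed by -0.49 (two-sided exact permutation p = 0.429, all 35 splits). A difference was not detectable at this depth.

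Il1rn (chr2:24336853-24351494, mm10), which encodes the natural antagonist that occupies IL1R1 without signalling, did not pass the test. It stood at 7.84, 7.66 and 18.1 CPM in ITA-LNP libraries, against 13.4, 0.299, 20.6 and 6.89 CPM with control-LNP. The groups overlapped, and the lowest value was that of control-LNP replicate 2, where Il1b was highest. The low value was not particular to Il1rn. Among the control-LNP libraries, replicate 2 was lowest, or level with the lowest, for 7 members. Its median log2(CPM + 1) over genes was 0.68, against 4.15 to 4.53 in the other libraries. The log2 fold change was 0.60 ± 1.12 (adjusted p = 0.787, limma), with a 95% interval of -1.92 to 3.11 that allows several-fold changes either way. Its sign turned without control-LNP replicate 2 (-0.25), with median centring (-0.53) and with quantile normalization (-0.34).

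The balance of antagonist and agonist was then taken within each library. The log2 ratio of Il1rn to Il1b, each as CPM + 1, was 0.45, 1.57 and 3.01 with ITA-LNP and -2.26, -10.77, -3.43 and -2.78 with control-LNP. Il1rn was above Il1b in every ITA-LNP library and below it in every control-LNP library. The mean ratio was 1.68 ± 1.29 with ITA-LNP and -4.81 ± 4.00 with control-LNP (SD, n = 3 and 4), a difference of 6.49 (exact two-sided permutation p = 0.0286, the smallest that 35 splits can give; 0.0429 adjusted over the 3 single-value tests made). Without control-LNP replicate 2 the difference was 4.50 and the groups still did not overlap, but 3 against 3 libraries cannot give a p below 0.1. Il1rn itself overlapped between the groups, as given above, and Il1b did not. On the log2(CPM + 1) scale the gap between the groups in Il1b was wider than their overlap in Il1rn. This ratio therefore had to separate the groups, and its p-value adds nothing to the values of the 2 genes.

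**Figure D2:**
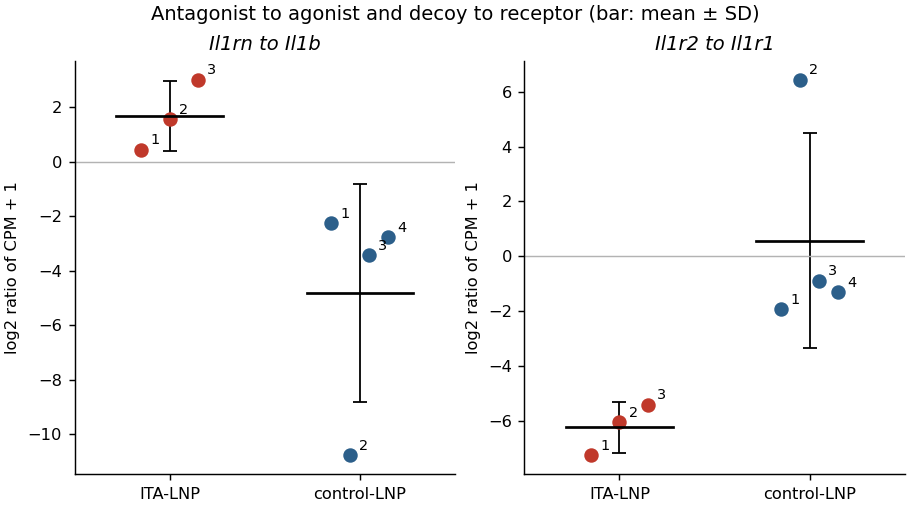
Log2 ratio of Il1rn to Il1b (left panel) and of Il1r2 to Il1r1 (right panel) in each library, each gene as CPM + 1, with ITA-LNP in red and control-LNP in blue, replicate numbers beside the points and bars for mean and SD (n = 3 and 4). The ITA-LNP points lie above 0 for the first ratio and between -7.26 and -5.41 for the second, with no overlap with control-LNP in either panel.

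Il1r1 (chr1:40225080-40317257, mm10), the receptor through which IL-1 signals and which wall cells carry, rose with ITA-LNP. It was at 152, 75.6 and 41.5 CPM with ITA-LNP, against 8.08, 0.748, 10.2 and 8.04 CPM with control-LNP. Every ITA-LNP library lay above every control-LNP library, and control-LNP replicate 2 was the lowest of all. The log2 fold change was 3.65 ± 0.92 (adjusted p = 0.0239, limma), and 3.03 without control-LNP replicate 2 (adjusted p = 0.00402). The call was lost without ITA-LNP replicate 1 (3.17, adjusted p = 0.133), without ITA-LNP replicate 2 (3.67, adjusted p = 0.0870) and with voom (3.99, adjusted p = 0.0569). Beside it, the summed smooth muscle, fibroblast and endothelial markers averaged 18409, 15010 and 1053 CPM with ITA-LNP and 155, 162 and 323 CPM with control-LNP, and their part in the rise of Il1r1 was not tested.

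The genes most like Il1r1 over the 7 libraries were Vangl1, Aco1 and Per2, with Pearson correlations of 0.9929, 0.9917 and 0.9905. Vangl1 encodes a planar cell polarity protein, Aco1 an iron-sensing cytosolic aconitase and Per2 a core clock repressor. The 2 RefSeq starts of Il1r1 are shown to let them be compared, since it was the member that rose; reads from the 3′ end do not tell which start was used. Capitals mark the NF-κB match of the second window, 232 bases before that start, and the first window held none of the 6 motifs.
Il1r1, first start, chr1:40224830-40225129, plus strand: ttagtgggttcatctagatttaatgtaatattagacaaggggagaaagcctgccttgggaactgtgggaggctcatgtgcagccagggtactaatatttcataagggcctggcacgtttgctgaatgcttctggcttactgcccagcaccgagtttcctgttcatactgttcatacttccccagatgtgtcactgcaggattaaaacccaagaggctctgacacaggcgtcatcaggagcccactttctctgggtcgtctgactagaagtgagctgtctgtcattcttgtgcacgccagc
Il1r1, second start, chr1:40266336-40266635, plus strand: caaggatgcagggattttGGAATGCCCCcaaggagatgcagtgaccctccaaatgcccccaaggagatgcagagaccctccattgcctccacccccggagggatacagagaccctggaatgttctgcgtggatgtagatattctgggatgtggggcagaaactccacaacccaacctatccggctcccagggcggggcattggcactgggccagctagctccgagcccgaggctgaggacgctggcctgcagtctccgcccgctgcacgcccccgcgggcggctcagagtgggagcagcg

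Il1rap (chr16:26581704-26730117, mm10), the shared partner that IL1R1 and the IL-33 receptor need to signal, was at 36.7, 9.43 and 34.6 CPM in ITA-LNP libraries, against 8.27, 1.94, 13.3 and 3.77 CPM with control-LNP. ITA-LNP replicate 2 lay within the control-LNP range, so the groups overlapped. The fitted change on the log2 scale, 1.88 ± 0.95, missed the threshold (adjusted p = 0.225, limma; 95% interval -0.25 to 4.00).

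Il1r2 (chr1:40074079-40125231, mm10), a decoy that binds IL-1 without signalling and that neutrophils carry, was near the detection limit with ITA-LNP. It had 0, 1 and 0 reads in the ITA-LNP libraries, or 0, 0.147 and 0 CPM. In the control-LNP libraries it was at 1.38, 150, 5.001 and 2.62 CPM, on 7, 1004, 26 and 16 reads. The groups did not overlap, and replicate 2 held 1004 of the 1053 control-LNP reads. Over pooled reads the control-LNP level was 933 times the ITA-LNP level, with an exact 95% counting interval of 167 to 36901, and without control-LNP replicate 2 it was 61.2 times (10.48 to 2465). The log2 fold change of -3.17 ± 1.37 missed the threshold with all libraries (adjusted p = 0.158, limma) and passed without that replicate (-1.83, adjusted p = 0.0311). Il1r2 passed the filter on low levels through the control-LNP libraries alone. That filter was set on all 7 libraries, including the replicate left out, so the call without it is a description. Per 1000 CPM of neutrophil markers Il1r2 stood at 0, 1.69 and 0 CPM with ITA-LNP and 1.43, 5.53, 0.482 and 2.36 CPM with control-LNP, where the groups overlapped.

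The ratio of decoy to signalling receptor was taken within each library. With 0, 1 and 0 reads of Il1r2, the ITA-LNP ratios rest on Il1r1 and on the pseudocount of 1 CPM. The log2 ratio of Il1r2 to Il1r1 was -7.26, -6.06 and -5.41 with ITA-LNP and -1.93, 6.43, -0.90 and -1.32 with control-LNP. Il1r2 exceeded Il1r1 in control-LNP replicate 2 alone. The means were -6.24 ± 0.94 with ITA-LNP and 0.57 ± 3.93 with control-LNP (SD, n = 3 and 4), a difference of -6.81 (exact two-sided permutation p = 0.0286, the smallest 35 splits can give; 0.0429 adjusted over 3 tests). The difference was -8.66 with a pseudocount of 0.25 CPM and -4.93 with one of 4 CPM, so its size is set in part by that choice. Without control-LNP replicate 2 it was -4.86 with no overlap. Every ITA-LNP library was lower in Il1r2 and higher in Il1r1, so this ratio had to separate the groups. The p-value of the ratio therefore adds nothing to the values of the 2 genes.

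Il33 (chr19:29925114-29960718, mm10), a nuclear alarmin of stromal and endothelial cells, was high in 2 ITA-LNP libraries and at 0 reads in the third. It was measured at 18.7, 67.9 and 0 CPM in ITA-LNP libraries, against 0.788, 0.299, 0.385 and 0.328 CPM with control-LNP, where it rested on 10 reads in all. ITA-LNP replicates 1 and 2 lay far above every control-LNP library. ITA-LNP replicate 3, with 0 reads of 7281721, allows up to 0.412 CPM and could not be told apart from control-LNP replicates 2, 3 and 4, with 2 reads each. Its log2 fold change was 2.94 ± 1.31 and did not pass (adjusted p = 0.169, limma), and it passed without ITA-LNP replicate 3 (4.68, adjusted p = 0.0123). Il33 passed the filter on low levels through the ITA-LNP libraries alone, so its p-values, with and without ITA-LNP replicate 3, are a description. Its receptor gene Il1rl1, which encodes ST2, was at 30.3, 0.442 and 15.0 CPM with ITA-LNP and 5.32, 0.1495, 3.27 and 5.08 CPM with control-LNP and was lowest in that group where Il33 was highest, in ITA-LNP replicate 2 (1.27 ± 1.23, adjusted p = 0.560, limma).

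Both RefSeq starts of Il33 are shown, because the promoter of this stromal member can be set beside that of Il1b. Capitals mark TATAAA, 203 bases before the first start and 29 before the second, and 2 adjacent GAGGAA cores at the first start.
Il33, first start, chr19:29924863-29925162, plus strand: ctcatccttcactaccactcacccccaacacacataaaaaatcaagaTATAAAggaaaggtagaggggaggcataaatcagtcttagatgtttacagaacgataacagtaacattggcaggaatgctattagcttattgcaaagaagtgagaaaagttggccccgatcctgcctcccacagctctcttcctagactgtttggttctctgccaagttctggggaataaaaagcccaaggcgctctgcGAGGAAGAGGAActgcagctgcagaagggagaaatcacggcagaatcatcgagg
Il33, second start, chr19:29945540-29945839, plus strand: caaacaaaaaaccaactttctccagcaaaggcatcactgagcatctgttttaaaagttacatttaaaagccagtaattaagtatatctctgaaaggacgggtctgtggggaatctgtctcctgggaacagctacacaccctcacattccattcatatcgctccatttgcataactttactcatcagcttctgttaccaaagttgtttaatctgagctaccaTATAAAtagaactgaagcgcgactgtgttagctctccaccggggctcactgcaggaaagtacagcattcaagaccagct

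Il18 (chr9:50554827-50581840, mm10), the other cytokine that caspase-1 releases, was at 0, 11.2 and 14.01 CPM in ITA-LNP libraries, against 7.29, 0, 6.54 and 1.31 CPM with control-LNP. Each group held 1 library with 0 reads, and the groups overlapped. The log2 fold change was 0.71 ± 1.23 (adjusted p = 0.767, limma; 95% interval -2.05 to 3.48) and turned to -0.42 with median centring. The receptor genes for IL-18 were called as lower. Il18r1, its binding chain, was at 1.25, 1.18 and 0.412 CPM in ITA-LNP libraries, against 113, 220, 121 and 226 CPM with control-LNP (-6.42 ± 0.68, adjusted p = 0.000329, limma). Il18rap, the partner chain on T and natural killer cells, was at 2.20, 2.36 and 0.412 CPM in ITA-LNP libraries against 65.4, 126, 41.9 and 54.1 CPM in control-LNP libraries (-4.76 ± 0.80, adjusted p = 0.00314, limma). Il18r1 passed the filter on low levels through the control-LNP libraries alone, so its call is a description. Both receptor genes were lower in every ITA-LNP library. Beside them the 8 T cell markers summed to 17.7 to 58.1 CPM with ITA-LNP and 279 to 778 CPM with control-LNP, and their part in these falls was not tested.

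Nlrp3 (chr11:59541568-59566956, mm10), the sensor that responds to potassium loss and crystals, was measured at 8.63, 0.295 and 0.549 CPM in ITA-LNP libraries, against 7.68, 216, 28.7 and 6.40 CPM with control-LNP. ITA-LNP replicate 1 lay above control-LNP replicates 1 and 4, so the groups overlapped, and control-LNP replicate 2 was 15.1 times the mean of the other 3. Nlrp3's log2 fold change of -3.24 ± 1.36 missed the threshold (adjusted p = 0.148, limma), as did that of -2.21 without control-LNP replicate 2 (adjusted p = 0.136). The genes most like it were Retn, Apobr and Uckl1, with Pearson correlations of 0.988, 0.9856 and 0.9852 over the 7 libraries. Per 1000 CPM of neutrophil markers Nlrp3 stood at 111, 3.38 and 11.9 CPM with ITA-LNP and 7.99, 7.95, 2.76 and 5.74 CPM with control-LNP, again overlapping. The 10 monocyte markers summed to 130 to 172 CPM with ITA-LNP and 785 to 1420 CPM with control-LNP, with Fcnb at 0 in all 7 libraries and 5 markers lower and 1 higher in every ITA-LNP library, and the part of either cell type in the levels of Nlrp3 and Casp1 was not tested.

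**Figure D3:**
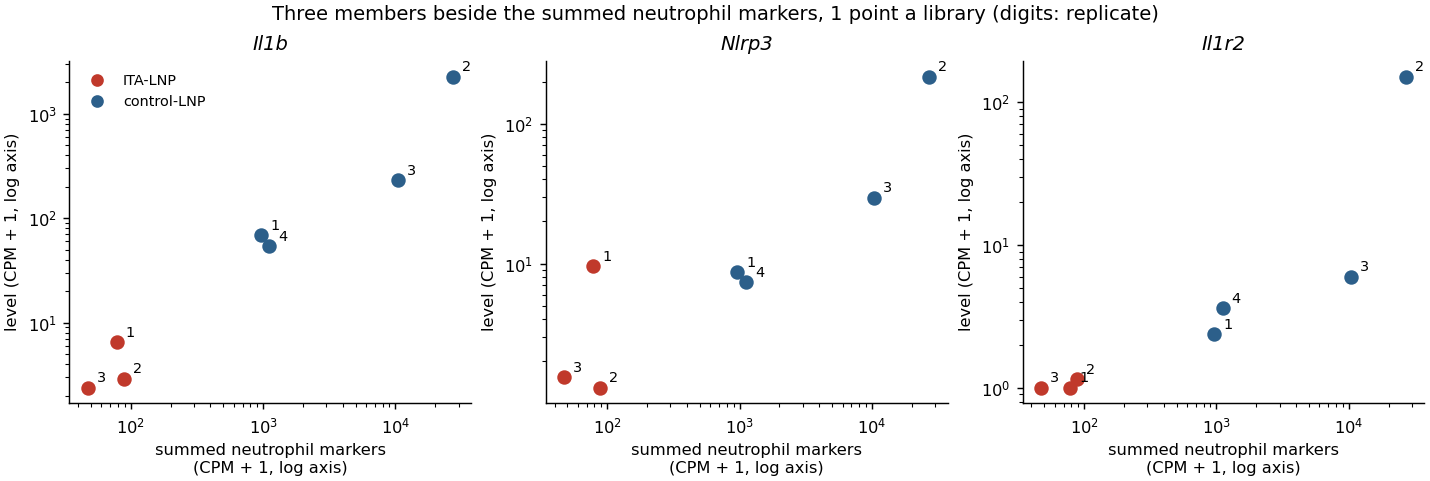
Level of Il1b, Nlrp3 and Il1r2 (CPM + 1, log axis) against the summed level of 11 neutrophil markers (CPM + 1, log axis), 1 point a library, ITA-LNP in red and control-LNP in blue with replicate numbers. The ITA-LNP points sit at 46.3 to 87.2 CPM of neutrophil markers and the control-LNP points at 962 to 27132 CPM, with control-LNP replicate 2 at the top right of each panel.

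Casp1 (chr9:5298517-5307265, mm10), the protease of the inflammasome, was at 0.157, 16.5 and 0 CPM in ITA-LNP libraries, against 40.6, 16.7, 31.9 and 27.9 CPM with control-LNP. All ITA-LNP values were below all control-LNP values, but ITA-LNP replicate 2, on 112 reads, lay just under control-LNP replicate 2, also on 112 reads, which this depth does not separate. The other 2 ITA-LNP libraries held 1 and 0 reads. Its log2 fold change was -3.41 ± 1.14 and did not pass (adjusted p = 0.0786, limma). It passed without ITA-LNP replicate 2 (-4.75, adjusted p = 0.0152), without control-LNP replicate 2 (-3.64, adjusted p = 0.0420), with median centring (-4.54, adjusted p = 0.0333), with quantile normalization (-3.52, adjusted p = 0.0116) and with sample weights (-3.73, adjusted p = 0.00241). Among the control-LNP libraries Casp1 varied least of the 9 tested members after Il33, with an SD of 0.52 in log2(CPM + 1), and unlike Il1b it was lowest in replicate 2. The genes most like Casp1 were Tspan13, Pim2 and Smap2, with Pearson correlations of 0.9944, 0.9873 and 0.9867.

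**Figure D4:**
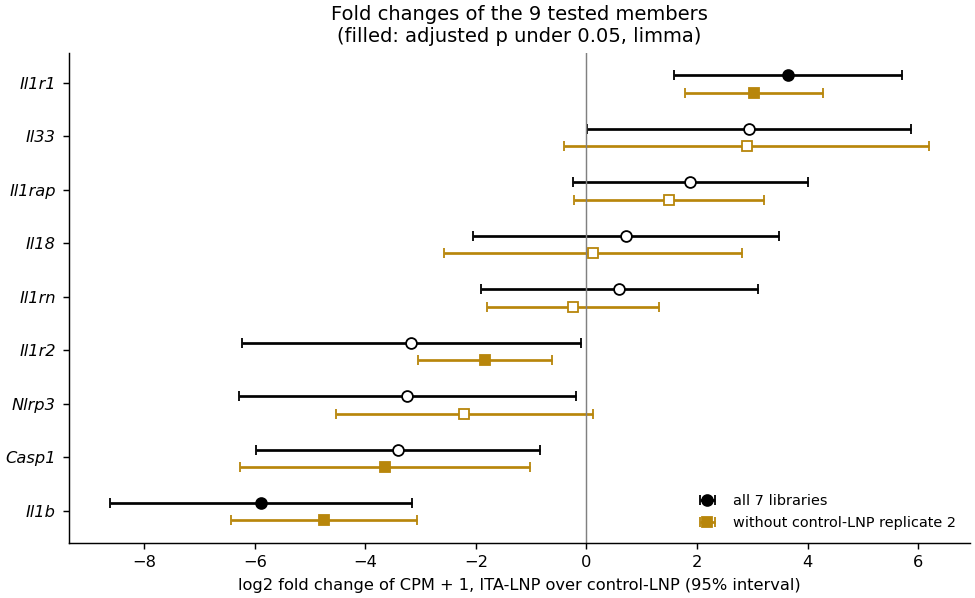
Log2 fold change of CPM + 1 with its 95% interval for the 9 tested genes, ITA-LNP over control-LNP, with all 7 libraries (circles) and without control-LNP replicate 2 (squares); filled symbols passed an adjusted p of 0.05. Il1b and Il1r1 are filled with all libraries, at -5.89 and 3.65, and Il1r2 and Casp1 are filled only without control-LNP replicate 2.

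Of 13 listed sensors and adaptors of inflammasomes other than Nlrp3, 10 were tested, of which 3 fell and 0 rose by limma-trend, where 5.15% of all tested genes were called as lower and 10.3% as higher (median log2 fold change -2.13 of the list and 0.15 of all genes; 1 higher and 5 lower at an unadjusted p under 0.05). Over all tested genes, 29.0% had an unadjusted limma-trend p under 0.0490. Voom called 2 of the list, Aim2 as lower and Nek7 as higher. Of all 12636 tested genes it called 498 as lower and 1270 as higher. Aim2, a sensor of DNA in the cytosol, was at 22.4, 0.884 and 16.2 CPM in ITA-LNP libraries, against 205, 150, 112 and 140 CPM with control-LNP (-4.03 ± 0.88, adjusted p = 0.0115, limma). Pycard, which encodes the adaptor ASC, averaged 33.8 CPM with ITA-LNP and 121 CPM with control-LNP (-2.02 ± 0.60, adjusted p = 0.0485), and Nlrp12 averaged 0.151 CPM with ITA-LNP and 6.004 CPM with control-LNP (-2.50 ± 0.74, adjusted p = 0.0486). Pycard missed the threshold when replicate 1 or 3 of ITA-LNP, or replicate 1, 3 or 4 of control-LNP, was left out (highest adjusted p = 0.165), and Nlrp12 when any library but control-LNP replicate 2 was (highest 0.167). With control-LNP replicate 2 left out, 6 of the 10 fell, adding Nlrc4, Naip6 and Nlrp6, and Nek7, a kinase that NLRP3 needs, rose (1.197, adjusted p = 0.00556), where 15.7% of all tested genes were lower and 15.7% higher. Nlrp12, Nlrc4, Nlrp6 and Naip6 passed the filter on low levels through the control-LNP libraries alone, so the counts that hold them are a description. Beside these genes, B cell markers summed to 7.42 to 34.98 CPM with ITA-LNP and 686 to 2052 CPM with control-LNP, and the part of these and of the other leukocyte markers given above was not tested.

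Of 8 tested triggers and effectors of pyroptosis, the lytic cell death that inflammasomes start, 0 passed with all libraries by limma-trend or voom, where limma-trend called 15.5% of all tested genes (median log2 fold change -1.48). Voom called 1768 of all 12636 tested genes. At an unadjusted p under 0.05 limma-trend gave 3 of the list and voom 2. Of all tested genes, 29.0% had an unadjusted limma-trend p under 0.0490, and no such share was taken for voom. Gsdmd, the pore protein that caspase-1 cuts, came nearest and was at 0, 0.147 and 0.137 CPM in ITA-LNP libraries, against 53.8, 0.299, 44.0 and 37.4 CPM with control-LNP (-4.10 ± 1.35, adjusted p = 0.0736). Control-LNP replicate 2, with 2 reads, could not be told apart from the ITA-LNP libraries at this depth. Without it Gsdmd, which passed the filter through the control-LNP libraries alone, fell by 5.38 on the log2 scale (adjusted p = 0.000590). Next by p were Ninj1, which ruptures the membrane late in lytic death (-1.98 ± 0.83, adjusted p = 0.144), and Txnip, a thioredoxin inhibitor (0.61 ± 0.27, adjusted p = 0.163, and -0.52 with median centring). With control-LNP replicate 2 left out, P2rx7, an ATP-gated channel, was also lower (-3.91, adjusted p = 0.0122), and Casp4, the sensor of bacterial lipopolysaccharide, higher (1.40, adjusted p = 0.0221), where 31.4% of all tested genes were called. P2rx7 also passed the filter through control-LNP alone, so its call, that of Gsdmd and the counts that hold either are a description.

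Of the other IL-1 family receptors and binding proteins, 2 of 6 tested fell, Il18r1 and Il18rap as given above, by limma-trend and by voom, and 0 rose, also at an unadjusted p under 0.05, where 5.15% of all tested genes were called as lower (median -1.50, or -2.05 with Il1rl2 at its bound). Il18r1 and Il1rl2 passed the filter through the control-LNP libraries alone, so the count that holds them is a description. By voom, 498 of all 12636 tested genes were called as lower. Il1rl2, the IL-36 receptor, was at 0 reads in all ITA-LNP libraries and at 2.17, 6.58, 5.39 and 0 CPM with control-LNP, at least 7.51-fold lower as a mean against the largest limit of 3 reads in an ITA-LNP library, and did not pass (adjusted p = 0.177, limma). Of the 5 other ligands, Il1f9, which encodes IL-36γ, was the 1 tested and stood at 7.22, 0.147 and 0.824 CPM in ITA-LNP libraries, against 14.6, 77.7, 42.9 and 10.2 CPM with control-LNP (-3.43 ± 1.09, adjusted p = 0.0641). Its groups did not overlap. The other 4 had 0 reads in all 7 libraries.

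The relay from the receptor to NF-κB showed 0 calls among its 16 tested genes by limma-trend or voom, and 2 by each, both lower, at an unadjusted p under 0.05 (median -0.16). Over all tested genes limma-trend called 15.5%, and voom called 1768 of 12636. An unadjusted limma-trend p under 0.0490 was held by 29.0% of them. Ikbkb, a kinase that marks the NF-κB inhibitor for destruction, came first by p, at a mean of 43.9 CPM with ITA-LNP and 168 CPM with control-LNP (-2.22 ± 0.68, adjusted p = 0.0565). Peli1 and Tab2 followed (adjusted p = 0.122 and 0.232). With control-LNP replicate 2 left out, Ikbkb and Peli1 were lower (adjusted p = 0.0495 and 0.00309), where 31.4% of all tested genes were called.

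Of 14 genes that IL-1 is known to induce, 11 were tested, of which 6 rose and 0 fell by limma-trend and by voom, with 0 lower at an unadjusted p under 0.05 by either (median 3.78), beside 10.3% of all tested genes called as higher. Cxcl1, Ccl2 and Il6 passed the filter on low levels through the ITA-LNP libraries alone, so they had to differ and the count that holds them is a description. The other 3 called, Vcam1, Mmp3 and Ptgs2, reached the filter's level in both groups. By voom, 1270 of all 12636 tested genes were called as higher. Vcam1, the endothelial and smooth muscle adhesion molecule for monocytes, was at 1245, 1318 and 1453 CPM in ITA-LNP libraries, against 23.6, 11.4, 7.89 and 18.7 CPM with control-LNP (6.46 ± 0.48, adjusted p = 6.03e-05, limma). Cxcl1, a neutrophil attractant, was at 88.3, 51.0 and 192 CPM in ITA-LNP libraries, against 0.591, 0.598, 0.962 and 0 CPM with control-LNP (6.01 ± 0.87, adjusted p = 0.00163). Mmp3, a matrix protease, averaged 133 CPM with ITA-LNP and 1.72 CPM with control-LNP (5.61 ± 0.82, adjusted p = 0.00170). In these genes no ITA-LNP value overlapped a control-LNP value.

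Il6, the cytokine downstream of IL-1, was at 31.4, 27.1 and 6.32 CPM in ITA-LNP libraries, against 0 reads in each of the 4 control-LNP libraries. Its mean was at least 36.6-fold higher, set against the largest level that 3 reads give in a control-LNP library (adjusted p = 0.00633, limma). Ccl2, which attracts monocytes, and Ptgs2, which encodes cyclooxygenase-2, rose by 4.55 ± 0.87 and 3.78 ± 0.88 on the log2 scale (adjusted p = 0.00618 and 0.0166). With median centring Ccl2, Il6 and Ptgs2 did not pass (adjusted p = 0.0647, 0.0897 and 0.157), and Ptgs2 also missed the threshold with replicate 2 or 3 of ITA-LNP, or replicate 3 or 4 of control-LNP, left out (highest adjusted p = 0.0648). With control-LNP replicate 2 left out, 7 of the 11 were called, adding Icam1, an adhesion molecule for leukocytes (2.10, adjusted p = 0.0102), where 15.7% of all tested genes were higher. Not all of the list moved: Nfkbia, the NF-κB inhibitor and an early target, was at 576 ± 30.9 CPM with ITA-LNP and 665 ± 165 CPM with control-LNP (SD, n = 3 and 4; adjusted p = 0.724). Cxcl5 and Cxcl2 had estimates below 0 (-0.52 and -0.35, adjusted p = 0.788 and 0.917, limma). For Cxcl2, control-LNP replicate 2 was at 1385 CPM, and the estimate was 1.13 without that library. The smooth muscle, fibroblast and endothelial marker sums given above differed in the same direction as the genes that rose, and their part in these rises was not tested.

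**Figure D5:**
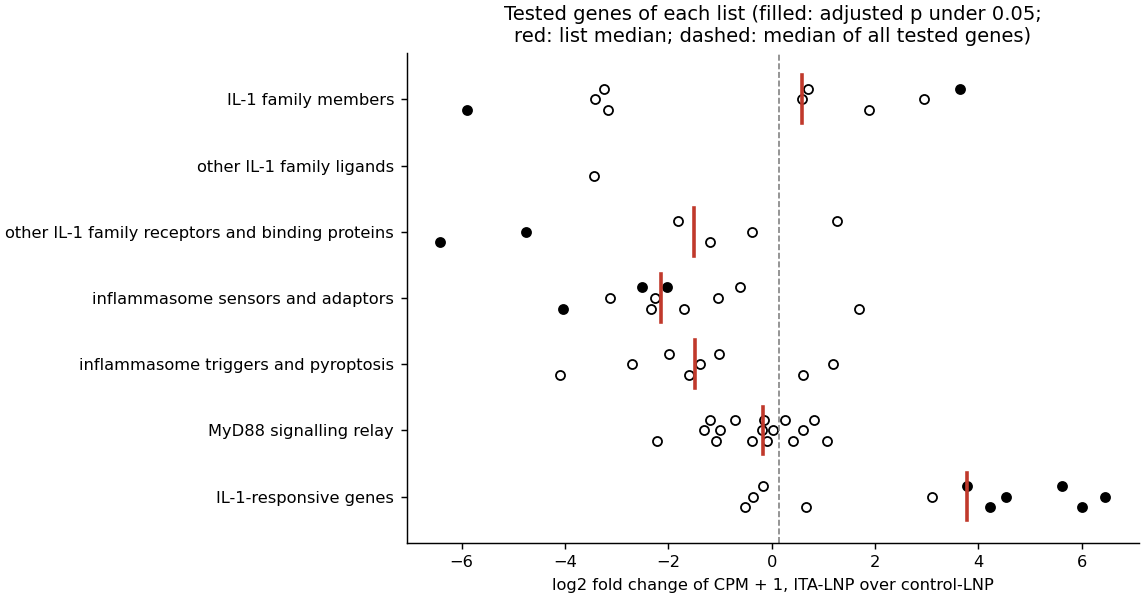
Log2 fold change of CPM + 1, ITA-LNP over control-LNP, of each tested gene in the 7 lists, with filled points past an adjusted p of 0.05, a red bar at each list's median where it has more than 1 gene, and a dashed line at the median of all tested genes, 0.15. The IL-1-responsive genes have 6 filled points, all right of 0, and the sensors and adaptors have 3, all left of 0.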

How the data were processed

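Whole abdominal aorta RNA, 500 ng a library, was sequenced from the 3′ end (QuantSeq), per the labels' protocols. Per the submitters' processing notes the reads' build is mm10. How reads were aligned, counted and assigned by strand is not given in the sources used here. Hence reads of Il1b, Il1a and Il1rap cannot be told apart from those of antisense genes that overlap their exons in GENCODE M21.

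The deposited values are on a log10 scale, made by the authors. With 1 subtracted from 10 to the power of the value, each library sums to 1000000, so they were read as log10(CPM + 1). In each library 100% of the CPM were whole multiples of 1 step within 0.01, which gave the reads. Of 32544 genes, 12636 had a mean log2(CPM + 1) of at least 1 and were tested with limma-trend (limma 3.58.1, R 4.3.3), ITA-LNP minus control-LNP, all 7 libraries, no covariate, Benjamini-Hochberg threshold 0.05. The pseudocount of 1 CPM understates changes of low genes. Errors after ± are SE unless SD is written. The procedure was tested on simulated data, in which both groups shared a mean profile apart from genes set to differ and no library stood apart. That setting is unlike these libraries, so the simulation does not vouch for the calls made here. Il1a, below the filter, and the 2 ratios had exact permutation tests. Older symbols served Il1f9 and the other IL-36 genes. Named from each list were its first 3 genes by p and any past the threshold; genes most like a member are given for the 4 members with the lowest p. Single genes outside this rule, Il1rl1, Nfkbia, Cxcl2, Cxcl5, Csf1r, and those called without control-LNP replicate 2, were chosen after their values were seen. Members and lists were chosen with earlier results of these data known. Groups and replicate numbers came from the sample titles, which write NP for LNP. Replicate numbers were not used to pair libraries in the main test, and the labels do not state a pairing.

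The alternatives changed the filter (absent, or 2), the pseudocount (0.25 or 4 CPM), the scaling (medians, quantiles), the variance prior (untrended, robust) and the model (weights, a block by replicate number, voom on recovered reads), or left out 1 library. Software was Python 3.11.15 with scipy 1.17.1, numpy 2.4.6, pandas 2.3.3 and matplotlib 3.10.9. Promoters came from RefSeq on GRCm38.p6, and coordinates from GENCODE M21 on mm10.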

Additional observations from a re-analysis of the deposited data

Results flagged for a closer look

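Control-LNP replicate 2 lay far from the other 3 control-LNP libraries in 3 of 12 quantities examined with Dixon's rule, of which chance flags about 1 in 20. Il1r1 was at 0.81 there in log2(CPM + 1), against 3.18 to 3.48 in the others. The log2 ratio of Il1rn to Il1b was -10.77, against -3.43 to -2.26. The log2 ratio of Il1r2 to Il1r1 was 6.43, against -1.93 to -0.90. The ratios are built from members also examined alone, and Il1r1 enters its own flag and that of its ratio. The 3 flags of control-LNP replicate 2 are therefore not independent. In the same library the median log2(CPM + 1) over genes was 0.68, against 4.15 to 4.53 in the other libraries. The summed neutrophil markers were at 27132 CPM there, against 962 to 10380 CPM in the other control-LNP libraries. The part of either in these values was not tested.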

How the results depend on the processing

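Counts of calls moved with sample weights, with control-LNP replicate 2, with scaling and with the block. Leaving out 1 library gave 1372 to 3964 genes changed (1957 with all), 974 to 1982 higher (1306) and 398 to 1982 lower (651), each highest without control-LNP replicate 2, and lower genes were 410 without control-LNP replicate 3 and 398 without replicate 4. It gave 1 to 4 members changed (2 with all), 4 without that replicate and 1 without ITA-LNP replicate 1. Quantile normalization gave 3015 changed and 1401 lower genes. Sample weights gave 4343 changed, 2100 higher and 2243 lower genes and 4 members. Median centring, which shifts ITA-LNP against control-LNP by 1.13 on the log2 scale, gave 741 higher and 1249 lower genes. The shift rests mostly on control-LNP replicate 2, whose median was 0.68, against 4.15 to 4.53 in the other libraries. Voom called 0 members (4 at an unadjusted p under 0.05), beside 1768 of all 12636 tested genes. The replicate block gave 1060 changed genes, 738 higher and 322 lower, and 1 member, Il1r1 being lost (adjusted p = 0.0827). Same-numbered libraries did not deviate together (correlations of deviations from the group means 0.00528, -0.0105 and -0.0173). This check cannot exclude a pairing, because groups of such unlike composition need not deviate alike. Il1rn turned to -0.53 with median centring, -0.34 with quantile normalization and -0.25 without control-LNP replicate 2 (range over left-out libraries -0.25 to 1.10), and Il18 to -0.42 with median centring. Il33 passed with sample weights (2.99, adjusted p = 0.0262), also a description. Control-LNP replicate 2 had the lowest sample weight, 0.0792, against 0.559 to 7.99 in the other libraries. The cause of the moves given here was not tested. Leaving out a library, the Il1rn to Il1b difference ranged over 4.50 to 7.34, that of Il1r2 to Il1r1 over -7.65 to -4.86 and that of Il1a over -0.65 to -0.28. With 2 against 4 libraries no exact p can fall below 0.0667. Depth limits Il1a, Il1r2 and Il33 most, each with under 11 reads in at least 1 whole group.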
